A study of Homo sapiens with 16 samples.

Results

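HT1080 is a human fibrosarcoma cell line. After 6 h in 25 µM A0, a thioxotriazole copper(II) complex, its transcripts were set against those of cells kept for the same 6 h in 25 µM cisplatin, with 2 arrays for each drug, or 4 of the study's 16 arrays. The features described are the array probes named by GI sequence number whose detection score was at least 0.99 on both A0 6 h arrays or on both cisplatin 6 h arrays. They number 8486 of the 24350 GI probes on the array and were chosen by detection. No test between the drugs entered the choice, but a probe not detected on all 4 arrays is in the set through 1 drug. The lowest score that admitted a probe was 0.9910, and the highest that left one out was 0.9897. The single-colour bead arrays of the study hold 8 groups of 2: A0 for 1, 3, 6 and 12 h, cisplatin for 3, 6 and 12 h, and controls for which the labels give no time. The drugs were added to medium with serum. This pair of groups needs no control, since both received a drug at the same dose for the same time. Nothing in the labels says that the 2 arrays of a group stand for separate cultures. The p-values then measure only the spread between arrays of the same group, pooled over the 8 groups, which may be technical. No solvent is named for either drug.

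Cisplatin is a platinum compound that crosslinks bases of DNA, which stalls replication and transcription and is known to set off the DNA damage response. Copper complexes can carry copper into cells and disturb the folding of proteins. The study's title names endoplasmic reticulum stress and paraptosis for A0. Endoplasmic reticulum stress is the accumulation of unfolded protein in that compartment, met by the unfolded protein response, in which chaperone genes are induced and translation is slowed. Paraptosis is a form of death in which the cytoplasm fills with vacuoles of swollen reticulum and mitochondria, without the nuclear breakdown of apoptosis. The comparison asks where the transcript profiles of cells under these agents first part. The probes come with a GI number and no gene name, and 0 of the 24350 names matched the reference gene table, so the results are given by probe and no gene, pathway or position is named. The identity of the cell line could not be checked against marker genes for the same reason.

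Detected GI probes numbered 7966 and 8948 on the A0 6 h arrays and 8719 and 8835 on the cisplatin 6 h arrays, and 7626 to 9640 on all 16. Median raw signal was 108.1 and 130.7 on the A0 6 h arrays, against 110.4 and 108.6 on the cisplatin 6 h arrays. Over the 8486 probes, the A0 replicates correlated at 0.960 and differed with an SD of 0.50 on the log2 scale, and the cisplatin replicates correlated at 0.979 with an SD of 0.35. Arrays of different drugs correlated at 0.916 to 0.941. Over these probes a pair of different drugs thus resembled each other less than either pair of replicates did. A0 replicate 1 against cisplatin replicate 2 was the least alike. The 8486 include probes detected with 1 drug only, which by their choice differ between the drugs. Their part in these correlations was not tested. With 2 arrays a group, the number of arrays limits the precision. Over all tested probes the A0 6 h replicates differed the most of any group, with an SD of 0.51 against 0.33 to 0.48 in the others. The tests used a spread pooled over all groups.

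After 6 h, 301 of the 8486 probes were higher with A0 than with cisplatin and 447 were lower, at a Benjamini-Hochberg adjusted p of 0.05 in limma's moderated test. Among all 9293 probes tested in the series, 8.14% were called in this comparison, 3.29% higher and 4.84% lower. The median change of the called probes was 2.21-fold among those higher with A0 and 2.25-fold among those lower. Changes of more than 2-fold were seen in 205 of the probes that rose and 325 of those that fell, and changes of more than 4-fold in 27 and 23. These counts include probes that were not detected on all 4 arrays. Among the called probes that were, 131 rose and 188 fell more than 2-fold, and 20 and 12 more than 4-fold. On all 748 called probes both A0 arrays lay on the same side of both cisplatin arrays, but 50.5% of all tested probes showed such a separation, so it adds little by itself. Fold changes are differences of log2 levels after background correction and quantile normalisation, in a model over all 16 arrays.

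Those 748 calls depended on the arrays. Leaving out A0 6 h replicate 1 left 412 calls, cisplatin 6 h replicate 1 left 376 and cisplatin 6 h replicate 2 left 177, while without A0 6 h replicate 2 there were 555. In all 4 of these fits 146 probes were called in the same direction, 52 higher and 94 lower with A0, and the smallest of their differences was 1.03 on the log2 scale. When only the 4 arrays of the comparison were normalised and fitted, so that no control or other time entered in any way, 351 probes were called, and 334 of them were among the 748. That fit kept 143 of the 146. The median of all 8486 differences was -0.004, but quantile normalisation gives every array the same distribution, so a shift of the whole profile could not have been seen.

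**Figure D1:**
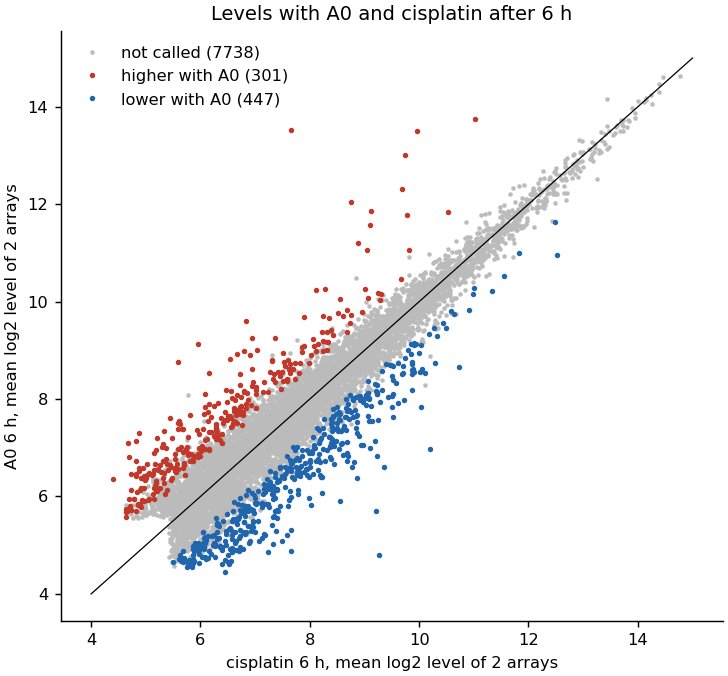
Mean log2 level after 6 h with A0 (vertical axis) against that with cisplatin (horizontal axis), each the mean of 2 arrays, for the 8486 probes. The line marks equal levels. Red points are the 301 probes called higher with A0, blue points the 447 called lower, and grey points the 7738 not called. The red point farthest from the line is GI_42822885-S, with a difference of 5.87.

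How a probe entered the set bears on its difference. All 4 arrays detected 7167 of the probes, and of these 199 were higher with A0 and 283 lower. A further 921 were detected on 3 of the 4 arrays, with 39 higher and 67 lower. Both A0 arrays and neither cisplatin array detected 139 probes, of which 63 were called higher with A0. Conversely, 259 were detected on both cisplatin arrays and neither A0 array, of which 97 were called lower with A0. These last 2 classes are in the set only through the drug in which they are bright. Their differences were thus bound to run one way, and the counts of them support nothing. Each of the 921 also entered through 1 drug, 271 by both A0 arrays and 650 by both cisplatin arrays. That favours a difference towards the drug in question, so the calls among them are no support either. The 482 calls among the 7167 became 279 or 320 when the A0 replicate 1 or 2 array was dropped, and 238 or 110 when the cisplatin replicate 1 or 2 array was. Outside the set, 8 of the 807 remaining tested probes were called.

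Among the 7167 probes seen on all 4 arrays, the calls lay at middle levels. In 4 bins of equal size by mean log2 level over the 16 arrays, from dim to bright, 4.74%, 9.77%, 8.65% and 3.74% were called. The dimmest bin ended at 6.83 and the brightest began at 9.04. Replicates of A0 differed by a median of 0.31, 0.31, 0.26 and 0.20 in these bins, and replicates of cisplatin by 0.23, 0.23, 0.21 and 0.17. The median size of the difference between the drugs was 0.30, 0.31, 0.26 and 0.18 over the same bins. Bright probes were thus the most repeatable and also differed the least between the drugs.

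The 4 probes printed by name were taken by a fixed rule, as the largest measured rise and fall among probes seen on all 4 arrays and the largest bounded rise and fall among probes seen with 1 drug only. The largest rise belonged to GI_42822885-S, a single-transcript probe. After 6 h its log2 level was 13.38 and 13.67 with A0, against 9.21 and 6.10 with cisplatin. The 2 cisplatin arrays stood far apart, while the A0 arrays lay close together and well above both. The difference was 5.87 on the log2 scale (SE 0.73, 95% interval 4.31 to 7.43, limma adjusted p = 0.000734), or 58.6-fold. It was 7.43 without cisplatin 6 h replicate 1 and 4.32 without cisplatin 6 h replicate 2, both past the threshold. With A0 the raw signals were 9389 from 28 beads and 17394 from 36, with a bead spread of 463 and 559. With cisplatin they were 666 from 42 beads and 149 from 24, with a bead spread of 21 and 14.2, so the gap between the cisplatin arrays was far wider than the spread of beads on either.

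At 3 h the same probe read 12.06 and 11.10 with A0, against 9.80 and 8.73 with cisplatin, and the difference of 2.32 did not pass the test (adjusted p = 0.571). At 12 h it read 13.86 and 14.17 with A0 and 6.37 and 5.28 with cisplatin, the last not detected. The measured difference was then 8.19 (adjusted p = 1.19e-05), with 1 of the 2 cisplatin arrays below detection. The levels under A0 were higher at each later time, while those under cisplatin were lower. The cisplatin 12 h mean differed from the cisplatin 3 h mean by -3.43 (adjusted p = 0.0111), which rests in part on that undetected array. The controls, whose time is unknown, had a mean of 5.23, and 1 of the 2 control arrays did not detect the probe. The cisplatin means were 9.26 at 3 h, 7.66 at 6 h and 5.83 at 12 h, all above that control mean. The fall under cisplatin thus ran from above the controls towards their level. The distance from the controls was not tested.

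Among probes seen on all 4 arrays the largest fall was that of GI_5453681-S. It read 7.89 and 6.07 with A0 after 6 h, against 10.21 and 10.19 with cisplatin. Here the A0 arrays disagreed and the cisplatin arrays were nearly equal. The difference was -3.22 (SE 0.42, limma adjusted p = 0.000888), or 9.31-fold lower with A0. Leaving out the A0 replicate 1 array gave -4.13 and leaving out the A0 replicate 2 array gave -2.31, both past the threshold. On the arrays of other times the probe read 7.58 and 8.04 with A0 at 3 h and 7.85 and 7.59 at 12 h, all near the control values of 8.05 and 7.76. With cisplatin it read 9.06 and 9.23 at 3 h and 9.77 and 9.19 at 12 h. Every cisplatin array lay above every A0 and control array. The difference between the drugs was -1.33 at 3 h (adjusted p = 0.571) and -1.76 at 12 h (adjusted p = 0.00726).

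The probe GI_38044281-A carries the suffix that marks probes for all transcript variants of a gene. It read 7.24 and 7.38 with A0 after 6 h and was undetected with cisplatin, at 5.05 and 4.69. It was at least 3.74-fold higher with A0. Such a bound sets the mean of the bright arrays against the lowest detected level of each dim array, or the probe's own level where that was higher. The probe was chosen for this difference, which is given with no test. At 3 h both drugs had shown it, at 6.97 and 7.29 with A0 and 6.76 and 6.41 with cisplatin, a difference of 0.54 (adjusted p = 0.826). At 12 h it read 7.06 and 7.01 with A0 and was again undetected with cisplatin, at 4.82 and 4.41. The controls, whose time is unknown, read 7.66 and 7.50. Within A0, 6 h minus 3 h was 0.18 (95% interval -0.28 to 0.65, adjusted p = 0.999). The fall below detection under cisplatin at 6 h is what chose the probe, so no test of it is given. The 12 h arrays entered the choice only through the shared normalisation and error estimate. At 12 h the drugs were called different (limma adjusted p = 1.3e-05).

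The probe GI_28872718-S showed the reverse. It was undetected after 6 h of A0, at 5.07 and 4.54, and read 9.17 and 9.36 with cisplatin. It was at least 13.4-fold lower with A0, a difference for which it was chosen and which has no test here. It already differed at 3 h, with 6.29 and 5.73 under A0 against 8.48 and 8.26 under cisplatin, all detected. That difference of -2.36 (SE 0.24, limma adjusted p = 0.00141) was 1 of the 2 calls at 3 h. At 12 h the probe read 5.41 and 5.11 with A0, both undetected, and 9.73 and 9.60 with cisplatin, and it was called lower with A0 (adjusted p = 5.04e-07). The A0 1 h arrays had read 7.26 and 7.53 and the controls 7.20 and 6.98. Levels from 3 h on were thus below the controls with A0 and above them with cisplatin, though the controls are not matched in time.

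**Figure D2:**
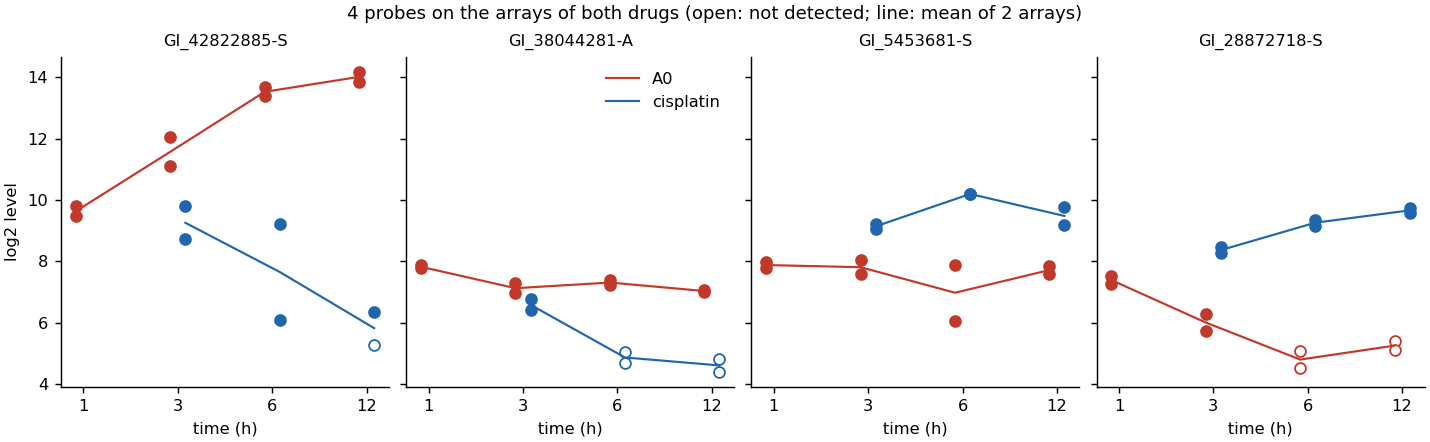
Log2 level of the 4 named probes over time, with A0 in red and cisplatin in blue. Points are arrays, open points arrays that did not detect the probe, and lines join the means of 2 arrays. Times are evenly spaced and not to scale. After 6 h GI_42822885-S and GI_38044281-A were higher with A0 and the other 2 probes lower. With GI_38044281-A the A0 line runs from 7.83 at 1 h to 7.04 at 12 h, while the cisplatin line drops below detection.

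Among probes seen on all 4 arrays, the 12 largest rises with A0 lay between 2.32 and 5.87 on the log2 scale. In size, the 12 largest falls lay between 2.03 and 3.22. All 12 of the first had the same sign at 3 h and were called in the same direction at 12 h. Of the second, all 12 had the same sign at 3 h and 11 were called at 12 h. The median difference of the 12 higher probes was 1.55 at 3 h, 2.76 at 6 h and 4.13 at 12 h, and that of the 12 lower ones was -0.76, -2.18 and -2.53. The 6 h values chose these probes. Arrays of 3 and 12 h entered that choice only through the shared normalisation and error estimate.

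The drugs were then compared at 3 h and 12 h on other arrays. These entered the 6 h comparison only through the shared normalisation and error estimate. At 3 h, 2 of the 8486 probes were called, 1 in each direction, where 0.0215% of all tested probes were, 0.0108% higher and 0.0108% lower. An unadjusted p under 0.05 was reached by 449, where 5% would be 424.3. Among the 7167 probes seen on all 4 arrays at 6 h it was reached by 299, where 5% would be 358.35. The 2 adjusted calls became 1 when A0 3 h replicate 1 or cisplatin 3 h replicate 2 was dropped and 6 when A0 3 h replicate 2 was. Most probes called at 6 h had the same sign at 3 h: 268 of the 301 higher with A0 and 405 of the 447 lower, or 89.0% and 90.6%. Over all 8486 probes 65.6% had the same sign at both times. The median 3 h difference was 0.37 for the 301 and -0.41 for the 447, against 0.01 over the whole set.

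Whether the difference between the drugs was itself other at 6 h than at 3 h was tested as an interaction of drug and time. It passed the threshold at 0 of the 8486 probes in limma's test, with 624 at an unadjusted p under 0.05 where 5% would be 424.3. Of these 624, 55 were probes detected at 6 h with A0 only and 86 probes detected with cisplatin only, whose 6 h difference was bound to run one way. Among the 7167 probes seen on all 4 arrays there were 380, where 5% would be 358.35. Every other processing tried also gave 0, and leaving out 1 array gave at most 2 calls. The 748 calls at 6 h and the 2 at 3 h are therefore not shown to be a change between these times. Within each drug, A0 6 h against A0 3 h gave 0 calls, with 414 probes at an unadjusted p under 0.05. Without A0 6 h replicate 2 it gave 8. Cisplatin 6 h against cisplatin 3 h gave 9 calls, 0 higher and 9 lower at 6 h, where 0.0968% of all tested probes were called. Neither the number nor the direction of these calls was stable. There was 1 call, higher, without cisplatin 3 h replicate 1, and 5 higher and 13 lower without cisplatin 3 h replicate 2. There were 0 without cisplatin 6 h replicate 2, 5 lower without the controls, and 10 higher and 17 lower without background correction. The median difference between the drugs over 8486 probes was 0.17 in size at 3 h and 0.29 at 6 h, against a median standard error of 0.25. Over the 7167 probes seen on all 4 arrays it was 0.16 and 0.26, against 0.24.

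**Figure D3:**
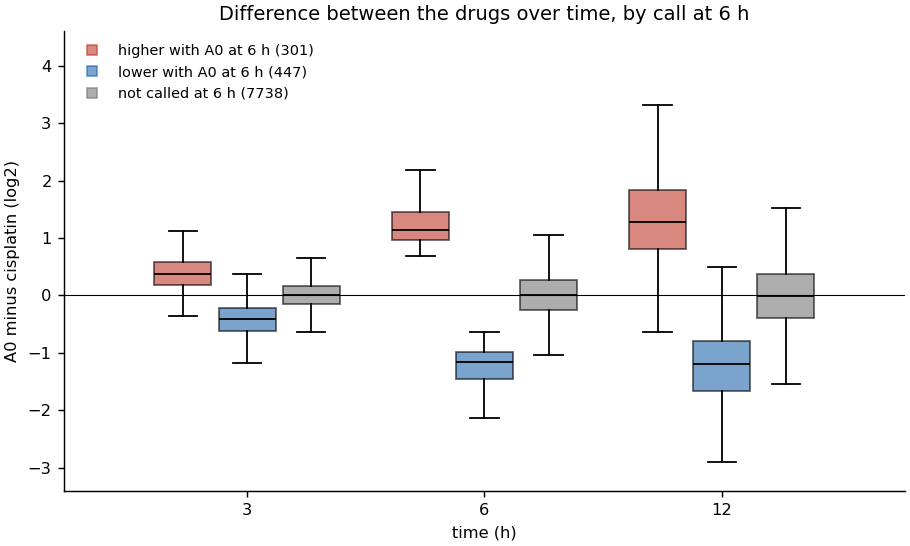
Difference between A0 and cisplatin (log2) at 3, 6 and 12 h for probes called higher with A0 at 6 h (red), called lower (blue) and not called (grey). Boxes span the middle 50% of probes with the median as a line, and whiskers reach the farthest value within 1.5 box lengths. The medians of the red boxes are 0.37, 1.14 and 1.28 and those of the blue boxes -0.41, -1.17 and -1.20. Probes were chosen at 6 h, which sets the gap there.

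Calls between the drugs were more numerous at 12 h. Of the 8486 probes, 989 were higher with A0 than with cisplatin and 1228 lower, where 25.9% of all tested probes were called, 11.8% higher and 14.1% lower. With arrays centred on the 75th percentile of all probes the split was 1192 and 966, and with the deposited processed values 1432 and 987, so no majority direction is given. The count fell to 1318 without A0 12 h replicate 2 and 1397 when cisplatin 12 h replicate 1 was dropped. An interaction from 6 to 12 h passed at 12 probes, 9 with a higher and 3 with a lower value for A0, where 0.226% of all tested probes passed, 0.183% higher and 0.043% lower. Leaving out 1 array gave 0 to 22, with 10 higher and 12 lower without A0 6 h replicate 2, and without background correction 11 were higher and 9 lower, so no majority direction is given. So few interactions do not show that the 12 h differences were other than those at 6 h for most probes. The spread of differences beyond their error, taken over the 8486 probes, was 0.15 at 3 h, 0.49 at 6 h and 0.72 at 12 h on the log2 scale. It is the root of the mean squared difference minus the mean squared standard error. The 8486 include the probes seen at 6 h with 1 drug only, whose 6 h differences were bound to run one way. Over the 7167 probes seen on all 4 arrays at 6 h the spread was 0.11, 0.42 and 0.68.

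Most 6 h calls recurred on the 12 h arrays. Of the 301 probes higher with A0 at 6 h, 292 were higher at 12 h and 231 were called so. Of the 447 lower, 432 were lower at 12 h and 357 were called so. These are 76.7% and 79.9% of the 6 h lists but 23.4% and 29.1% of the 12 h lists. The same sign at both times was found in 76.2% of all 8486 probes, and 24.6% of them were called at 12 h in the direction of their 6 h difference. A call in the opposite direction was made for 0 of the 301 and 1 of the 447. Among probes detected on all 4 arrays at 6 h, 167 of the 199 higher and 239 of the 283 lower were called again. Of the 146 probes called in every fit without 1 array, 145 had the same sign at 12 h and 139 were called.

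Seen from the other end, most probes called at 12 h had the same sign at 6 h. Of the 989 higher with A0 at 12 h, 928 were higher at 6 h, and of the 1228 lower, 1157 were lower. Their median difference at 6 h was 0.56 and -0.62, against 12 h medians of 1.09 and -1.09. Because the 12 h values chose these probes, the 12 h medians are raised by that choice. The 6 h medians are not raised by it, but they include probes detected at 6 h with 1 drug only. Among probes seen on all 4 arrays at 6 h, the 6 h medians were 0.52 and -0.56. There 807 of 851 and 883 of 939 had the same sign at 6 h. For the 748 probes called at 6 h the choice works the other way. Their difference was larger at 12 h than at 6 h in 171 of the 301 and 231 of the 447. The median of the 301 was 1.14 at 6 h and 1.28 at 12 h, and that of the 447 was -1.17 and then -1.20.

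**Figure D4:**
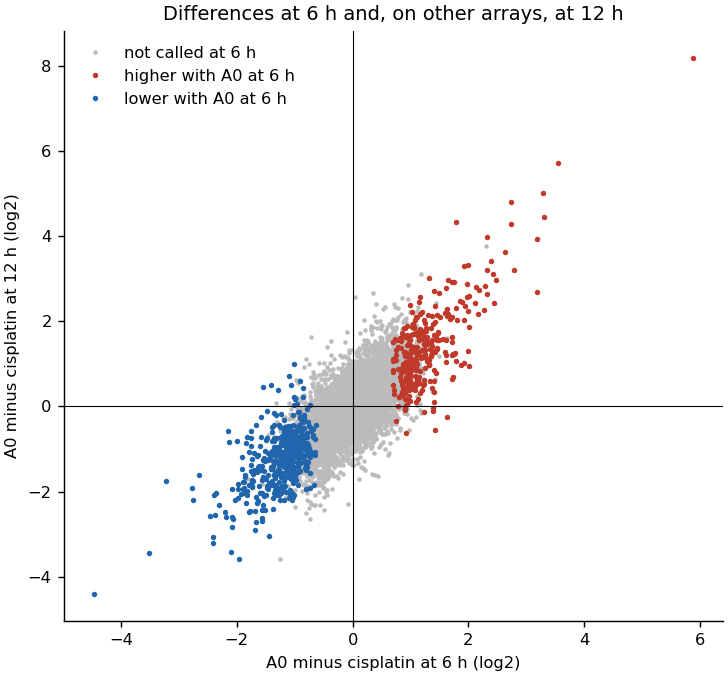
Difference between A0 and cisplatin (log2) at 12 h (vertical axis) against that at 6 h (horizontal axis) for the 8486 probes, measured on separate arrays. Red points were called higher with A0 at 6 h, blue points lower and grey points were not called. The reds lie above 0 at 12 h for 292 of 301 probes and the blues below 0 for 432 of 447.

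A difference between 2 treated groups can come from either. The 3 h and 12 h arrays show how each drug's own level moved. They entered the 6 h calls only through the shared normalisation and error estimate. For the 301 probes higher with A0 at 6 h, A0 12 h minus A0 3 h had a median of 0.18 and was above 0 in 186, while cisplatin 12 h minus cisplatin 3 h had a median of -0.61 and was below 0 in 246. Over all 8486 probes these medians were -0.03 and 0.02. By limma's test 54 of the 301 were higher and 12 lower at A0 12 h than at A0 3 h, where 3.28% and 4.65% of all tested probes were. With cisplatin, 1 was higher and 104 were lower, where 3.46% and 5.21% of all tested were. More of the 301 thus passed the test downward under cisplatin than upward under A0, though the difference between these counts was not tested.

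For the 447 probes lower with A0 at 6 h, A0 12 h minus A0 3 h had a median of -0.37 and was below 0 in 337. Cisplatin 12 h minus cisplatin 3 h had a median of 0.39 and was above 0 in 375. At A0 12 h 6 of them were higher and 95 lower than at A0 3 h, where 3.28% and 4.65% of all tested probes were. At cisplatin 12 h 86 were higher and 2 lower than at cisplatin 3 h, where 3.46% and 5.21% of all tested were. In 279 of the 447, or 62.4%, the 12 h level was below the 3 h level with A0 and above it with cisplatin, against 24.3% of all 8486 probes. Among the 301, 139 were above it with A0 and below it with cisplatin, or 46.2% against 20.1% of the whole set, and 107 were below it with both. Opposite signs were thus the most frequent pattern in both lists.

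**Figure D5:**
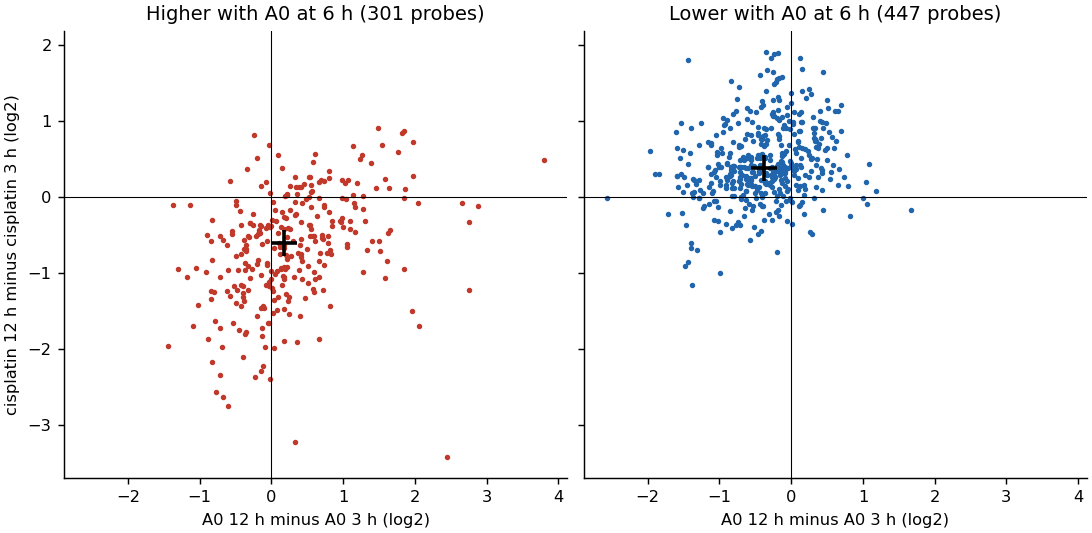
Change of level between 3 h and 12 h (log2) with A0 (horizontal axis) and with cisplatin (vertical axis) for the 301 probes called higher with A0 at 6 h (left, red) and the 447 called lower (right, blue). Each point is a probe and the cross marks both medians, at 0.18 and -0.61 on the left and -0.37 and 0.39 on the right. None of the arrays used here was a 6 h array. They did share in the normalisation and the error estimate behind the 6 h calls.

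Median levels were also read array by array. The 301 probes had a median log2 level of 7.31 and 7.22 after 1 h of A0, 7.32 and 7.25 after 3 h, 7.50 and 7.60 after 6 h and 7.44 and 7.59 after 12 h. With cisplatin the values were 6.90 and 6.73 at 3 h, then 6.31 and 6.16 at 6 h, then 6.17 and 6.31 at 12 h, while the controls read 6.98 and 7.05. The A0 arrays lay above the controls at every time and the cisplatin arrays below. This did not fully hold for the 199 of them seen on all 4 arrays at 6 h. There the cisplatin 3 h arrays read 7.51 and 7.43, about level with the controls at 7.50 and 7.51. The 6 h values chose these probes, so the distance at 6 h is partly set by that choice. The 447 probes read 6.82 and 6.83 after 1 h of A0, 6.63 and 6.89 after 3 h, 6.33 and 6.40 after 6 h and 6.44 and 6.36 after 12 h. With cisplatin their medians were 7.11 and 7.32 at 3 h, 7.66 and 7.69 at 6 h, then 7.81 and 7.56 at 12 h, against 6.93 and 6.92 in the controls. The controls thus lay between the drugs for both whole lists, but not clearly so at 3 h among the 199. These are levels with no test, and the control time is unknown.

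Detection itself was followed on the other arrays. Of the 139 probes seen at 6 h with A0 and not with cisplatin, 27 showed the same pattern at 12 h and 4 the opposite one, where 118 of all 8486 probes were seen with A0 only at 12 h. Of the 259 seen at 6 h with cisplatin and not with A0, 111 showed the same pattern at 12 h and 2 the opposite, where 380 of all 8486 were seen with cisplatin only. At 3 h, 17 of the 139 showed the same pattern and 1 the opposite, where 49 of all 8486 were seen with A0 only. Of the 259, 2 showed the same pattern and 2 the opposite at 3 h, where 4 of all 8486 were seen with cisplatin only. Both control arrays detected 51 of the 139 and 103 of the 259. Detection depends on the brightness of an array: the A0 12 h arrays detected 7831 and 7978 probes, against 7853 and 9079 on the cisplatin 12 h arrays, and its part in these patterns was not tested.

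In Illumina's naming, the suffix of a probe tells whether it reads a gene with a single transcript, 1 of several transcript variants or all variants of a gene. The share called at 6 h was 8.81% of 7000 single-transcript probes, 9.51% of 473 probes for 1 variant and 8.49% of 1013 probes for all variants. Directions differed in number: 228 single-transcript probes were higher with A0 and 389 lower, while 32 variant probes were higher and 13 lower. Probes for all variants divided into 41 higher and 45 lower. These counts include probes seen with 1 drug only, whose direction was bound to run one way. Among probes seen on all 4 arrays, 162 single-transcript probes were higher and 246 lower. There the probes for 1 variant divided into 15 and 7, and those for all variants into 22 and 30. Of all tested probes 3.29% were higher and 4.84% lower. No test of the difference in direction between probe types was made. In 47 cases a probe for all variants and a probe for 1 variant carried the same GI number and both were seen on all 4 arrays. Their differences had the same sign in 34 pairs and lay a median of 0.20 apart on the log2 scale. A call was made in 7 pairs, with the same sign in all 7, for both probes in 5, and 0 pairs were called in opposite directions.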

How the data were processed

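The authors deposited, per the file headers, the averaged bead intensity of each probe (linear, not normalised), a bead signal spread, a bead number and a detection score, which is a fraction. The submitters' processing notes name BeadStudio 1.5.1.3. Their deposited table of processed intensity is a straight line of each array's own signal (largest residual 0.18), so its scale is linear. Its column medians were 10.9 to 21.3 (19.6 and 13.5 for A0 6 h, 14.7 and 13.0 for cisplatin 6 h), and how the line was chosen is not stated in any label or header.

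Signals were background corrected with the detection scores, given an offset of 16, quantile normalised and put on log2 by neqc (limma 3.58.1, R 4.3.3). The 9293 probes detected (score at least 0.99) on both arrays of any of the 8 groups entered 1 linear model over 16 arrays, with 8 residual and 5.7 prior degrees of freedom, and p-values were adjusted over all of them. Probes for 4 bacterial transcripts were left out. The procedure was tested on simulated data with known changes at A0 6 h. Against cisplatin 6 h it found 2.99% of 67 changes of 1.5-fold, 41.8% of 67 of 2-fold and 100% of 66 of 4-fold. Of its 100 calls, 4% were false. Few calls at 3 h or for an interaction thus do not show that changes of 2-fold or less were absent. Named probes were, in each direction, the called probe with the largest difference among those detected on all 4 arrays with arrays not overlapping, and that with the largest bound among those detected with 1 drug only. The probes, the comparisons and the 19 gene lists (365 entries, 0 matched, not tested) were chosen with earlier results of these data known, and the 12 h against 3 h contrasts after seeing the data.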

Additional observations from a re-analysis of the deposited data

Results flagged for a closer look

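The difference between A0 and cisplatin was tested for a change from 6 to 12 h as an interaction of drug and time. It passed limma's test at 12 of the 8486 probes, 9 with a higher and 3 with a lower value for A0 at 12 h, where 0.226% of all tested probes passed. All 12 were called between the drugs at 12 h, and 2 of them at 6 h. The median difference of the 9 was 0.35 at 6 h and 2.13 at 12 h, and that of the 3 was -0.56 and -2.31. The count rests on single arrays. Dropping A0 6 h replicate 1 or 2 gave 21 (17 higher, 4 lower) or 22 (10 higher, 12 lower), dropping A0 12 h replicate 1 or 2 gave 6 or 1, dropping cisplatin 6 h replicate 1 or 2 gave 0 or 3, and dropping cisplatin 12 h replicate 1 or 2 gave 1 or 4.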

How the results depend on the processing

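The 4 named probes kept their direction at 6 h in all 66 fits tried for them. They were chosen as called, with the largest difference or bound, on these same 6 h arrays, so this adds little. For the 2 seen with 1 drug only the choice also fixes the direction. The 748 calls at 6 h ranged from 177 to 555 when 1 of the 4 arrays was left out, and those on all 4 arrays from 110 to 320. The array left alone in its group is assumed to vary like the others. With only the 4 arrays the counts were 351 and 215, with 2 residual degrees of freedom, and against a 1.5-fold threshold 83 and 47. The other counts ranged without 1 array from 1 to 6 at 3 h, 1318 to 1864 at 12 h, 0 to 2 for the interaction from 3 to 6 h, 0 to 22 for that from 6 to 12 h, 0 to 8 for A0 6 h against 3 h and 0 to 18 for cisplatin. The cause of the following shifts was not tested. Without background correction the count was 11 at 3 h, 20 for the interaction from 6 to 12 h, 1 for A0 and 27 for cisplatin between 3 and 6 h. Centring on the 75th percentile of all probes gave 8, 4 and 5 at 3 h, for the later interaction and for cisplatin, and on that of probes detected on all 16 arrays (chosen after seeing the data) 0, 0 and 4. The deposited processed values gave 0 at 3 h. No filter gave 5 for cisplatin, a filter on the 6 h groups 4 at 3 h, and the 14 treated arrays 5 for cisplatin. A trended and robust variance gave 7, 32 and 17 and array weights 1, 4 and 5 in the same order, and the 1.5-fold threshold 1, 0 and 0, with 521 at 12 h.

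The spread of differences at 6 h, 0.495, was 0.314 without background correction, 0.425 over probes detected on all 4 arrays, and 0.437 to 0.557 without 1 array. The share of 6 h calls with the same sign at 12 h, 96.8%, ran from 95.2% to 99.4% without 1 array. It was 98.7% without background correction, 98.0% and 97.9% with the 2 centrings, 98.1% with the deposited values and with no filter, 99.0% on all 4 arrays and 100% at 1.5-fold. Replicate numbers were not taken to pair the arrays in the main fit. Deviations of the 6 h groups correlated at 0.23, and 18 of 28 pairs of groups were over 0.1, while the lowest was -0.26. In each of the 8 groups replicate 1 detected fewer GI probes than replicate 2. Whether an effect shared by replicate number lies behind this was not tested. With the replicate block the count was 936 at 6 h, 4 at 3 h and 20 for the later interaction. The median of all differences at 12 h, -0.03, was 0.12 with centring on the 75th percentile of all probes, -0.06 with that of probes detected on all 16 arrays and 0.15 with the deposited values.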
